A study of Mus musculus with 9 samples.

Results

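The placental lactogen I genes Prl3d1, Prl3d2 and Prl3d3 and the proliferin genes Prl2c2, Prl2c3 and Prl2c5 belong to the prolactin family, a group of related hormone genes on mouse chromosome 13. They are 6 of the 47937 genes listed in an RNA sequencing experiment on mouse embryonic fibroblasts (MEFs), found by matching their Ensembl identifiers to gene symbols. They were chosen by their read counts in these libraries, which were known to be high in a single genotype, so their own levels and differences between genotypes are given as a description, without p-values. The experiment compared 3 genotypes with 3 libraries each, and asked how transcription responds when different pairs of histone H3 lysine 9 (H3K9) methyltransferases are missing. WT denotes the parental Eset1-conditional MEF line, which carries a tamoxifen-inducible deletion of that methyltransferase gene. The labels mention no tamoxifen for these libraries. S1S2 cells are mutant for Suv39h1 and Suv39h2, the enzymes of constitutive heterochromatin. G9Gl cells are mutant for G9a (Ehmt2) and Glp (Ehmt1), which methylate H3K9 mainly at euchromatic genes. Both mutants were made in the WT line with CRISPR/Cas9 and picked as clones without detectable target protein on western blots. Each mutant is taken to be a single clone, so that genotype and clone cannot be told apart. The study's methods speak of 3 biological replicates per cell line, while the labels do not say whether the replicates came from separate cultures. The methods of the study were assumed to hold for these libraries.

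Prolactin family hormones are secreted proteins related to pituitary prolactin and growth hormone. In rodents the family has been duplicated many times, and most of its members are made by the placenta, each in its own trophoblast or decidual cells and its own window of gestation. Placental lactogen I is made by trophoblast giant cells after implantation. It acts through the prolactin receptor and keeps the corpus luteum producing progesterone. Proliferin, also a product of trophoblast giant cells, promotes the growth of blood vessels and binds the cation-independent mannose 6-phosphate receptor Igf2r. It is also known from growing mouse fibroblast lines.

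All members are protein-coding and lie on chromosome 13 of GRCm38. The proliferin genes are spread over a proximal stretch of 401.1 kb, with Prl2c3 at chr13:12790816-12800079 and Prl2c2 at chr13:12996125-13005383 on the minus strand, and Prl2c5 at chr13:13182715-13191923 on the plus strand. The placental lactogen I genes lie side by side on the plus strand in a separate distal stretch of 1094 kb that holds 23 genes of the family, with Prl3d1 at chr13:27094190-27100258, Prl3d2 at chr13:27121698-27127555 and Prl3d3 at chr13:27156790-27162593. No annotated gene overlaps any member. The copies are close to identical in sequence. Of all 75-base words in the longest Prl3d2 transcript, 56.7% also occur in transcripts of other genes, and the same holds for 56.1% of Prl3d3 and 37.8% of Prl3d1. For the proliferin genes this share is 80.1% in Prl2c2, 69.9% in Prl2c3 and 20.5% in Prl2c5. Reads were 75 bp long and multiply aligned reads could be shared between copies, so the split among copies is uncertain and each group is also given as a sum.

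Upstream sequences are shown for 4 family genes with closely alike windows, Prl3d2 beside Prl3d1 and Prl2c5 beside Prl7d1, whose counted levels differ. Prl2c5 and Prl7d1 are alike in these windows only, and their transcripts share no 75-base words. The sequences are the 250 bases before the start site in RefSeq (GRCm38.p6), written along the strand of the gene. Capitals mark matches to the AP-1 motif TGACTCA on either strand, the GATA motif, GATAA read on either strand, and the TATA motif TATATA.
Prl3d2, chr13:27121445-27121694, plus strand: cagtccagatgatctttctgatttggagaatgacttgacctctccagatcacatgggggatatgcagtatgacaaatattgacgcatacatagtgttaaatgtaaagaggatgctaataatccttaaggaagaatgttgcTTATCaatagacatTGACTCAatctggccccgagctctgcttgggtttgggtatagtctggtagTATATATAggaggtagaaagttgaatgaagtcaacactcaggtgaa
Prl3d1, chr13:27093939-27094188, plus strand: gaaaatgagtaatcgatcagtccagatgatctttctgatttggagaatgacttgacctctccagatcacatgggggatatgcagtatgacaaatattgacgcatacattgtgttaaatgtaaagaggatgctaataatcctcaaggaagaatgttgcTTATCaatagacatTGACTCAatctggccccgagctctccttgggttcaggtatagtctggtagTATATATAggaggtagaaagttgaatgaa
Prl2c5, chr13:13182466-13182715, plus strand: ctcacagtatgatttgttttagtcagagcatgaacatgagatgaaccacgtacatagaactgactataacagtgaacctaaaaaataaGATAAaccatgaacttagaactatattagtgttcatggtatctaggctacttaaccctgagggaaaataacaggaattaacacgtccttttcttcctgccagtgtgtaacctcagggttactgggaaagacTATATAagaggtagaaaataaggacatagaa
Prl7d1, chr13:27716737-27716986, minus strand: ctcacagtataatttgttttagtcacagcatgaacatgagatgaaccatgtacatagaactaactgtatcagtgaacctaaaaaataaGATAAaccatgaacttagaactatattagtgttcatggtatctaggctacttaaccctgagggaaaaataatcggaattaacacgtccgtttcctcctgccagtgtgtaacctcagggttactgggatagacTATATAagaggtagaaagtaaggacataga

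The windows of Prl3d1, Prl3d2 and Prl3d3 each held 1 AP-1 match, 1 GATA match and a TATA match, in the same order. In Prl3d2 the AP-1 match begins 96 bases before the start site and the GATA match 110 bases before it. The proliferin windows of Prl2c3 and Prl2c5 held a GATA match 162 bases before the start and a TATA match, and no AP-1 match. Windows of 300 bases, from 250 before to 50 after the start, were found for 22 of the 26 listed family genes, and Prl2c2 was among those without. TATATA was present in 20 of these 22 windows (90.9%), beside 5.67% of all 32851 promoter windows of the same length. GATAA matched in 13 of 22 (59.1%) beside 25.4%, and the AP-1 motif in 6 of 22 (27.3%) beside 5.20%. The family windows were also poor in CpG, with a median of 2 CpG dinucleotides against 7 in all windows, and 54.5% of them held 2 or fewer against 23.3%. Their median GC content was 40.5% against 52.67%. These are counts of letters, and near-identical copies are not independent of each other.

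**Figure D1:**
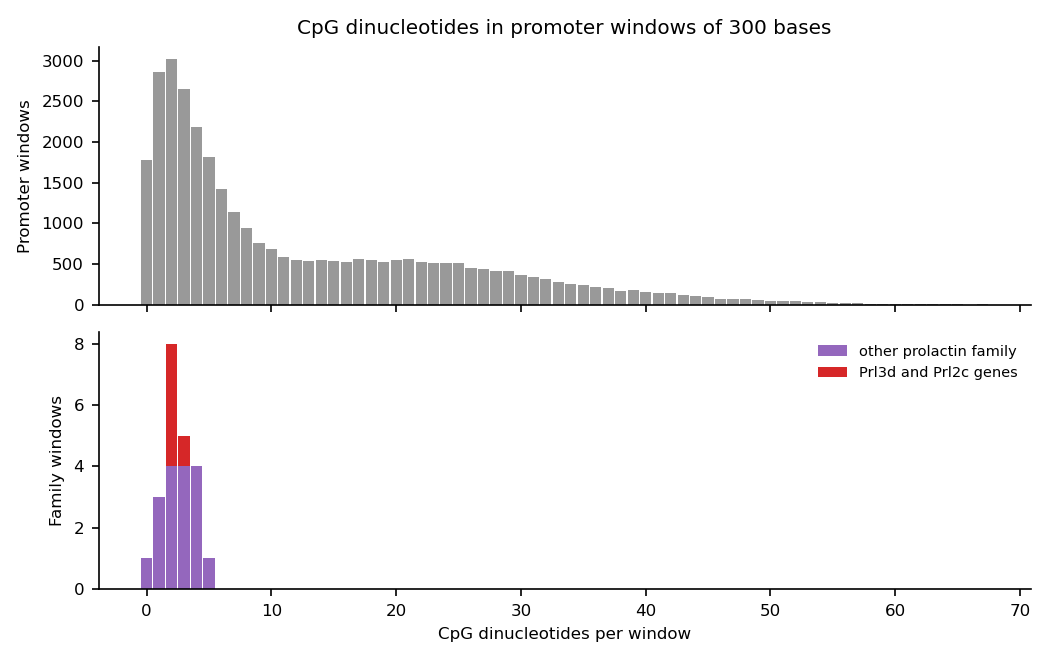
Number of CpG dinucleotides in promoter windows of 300 bases (x axis) against the number of windows (y axis), for all 32851 windows (top) and for the 22 prolactin family windows (bottom), with the Prl3d and Prl2c genes in red. All family windows hold few CpG, with a median of 2, while the full set has a median of 7 and a long tail to the right.

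Libraries held between 21319778 and 32157623 gene counts. A floor of 3 counts, under which a gene was treated as not detected, corresponded to between 0.0922 and 0.141 CPM, the count scaled to library size (counts per 1e6). The RNA of Ehmt2 and Ehmt1 was lower in G9Gl than in WT, with log2 fold changes of -1.20 and -1.04, and that of Suv39h1 was lower in S1S2, with -1.36, while Suv39h2 RNA had a log2 fold change of 0.70 there and was not called. The mutations are frameshifts, and RNA level does not report on the protein. All 10 fibroblast genes checked were counted in every library, though their levels shifted. In G9Gl against WT 4 were called, beside 10.2% of all tested genes, with log2 fold changes of -5.17 for Dcn, -1.85 for Pdgfra, -1.34 for Pdgfrb and 2.94 for Thy1. In S1S2 6 were called, all lower, beside 4.34% of all genes, among them Col3a1 with a log2 fold change of -3.01, Col1a2 with -2.60 and Thy1 with -1.29. The part of these shifts in the hormone result was not tested.

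Placental lactogen I transcripts were close to absent in WT and S1S2 and present in all G9Gl libraries. Prl3d2 had 0 counts in each of the 3 WT libraries, 1, 0 and 2 counts in the S1S2 libraries, and 933, 928 and 1015 counts in the G9Gl libraries. Every G9Gl library thus stood far above all others, at 33.1 ± 0.298 CPM (SD, n = 3). This is at least 344-fold over WT and at least 255-fold over S1S2, as bounds against the mean floor of the libraries of that genotype. Prl3d3 had 0, 1 and 0 counts in WT, 0, 1 and 0 in S1S2, and 85, 89 and 125 in G9Gl. Its level in G9Gl was 3.42 ± 0.581 CPM, at least 35.6-fold over WT and at least 26.4-fold over S1S2. Prl3d1, the remaining copy, had 0, 1 and 0 counts in WT, 0 in all S1S2 libraries, and 7, 5 and 8 in G9Gl. It lay just over the floor in G9Gl, did not pass the filter on low counts, and was at least 2.38-fold over WT.

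Summed over the 3 copies, placental lactogen I had 0, 2 and 0 counts in WT, 1, 1 and 2 in S1S2, and 1025, 1022 and 1148 in G9Gl. The G9Gl libraries varied little among themselves, with 36.7 ± 0.749 CPM (coefficient of variation 2.04%). The sum was at least 382-fold higher than in WT and at least 284-fold higher than in S1S2. On a log2 scale with 0.1 CPM added, the difference was 8.24 (SE 0.245) against WT and 7.86 (SE 0.157) against S1S2, and this figure depends on the amount added. S1S2 and WT were both at or under the floor, so no fold is given between them.

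Within the group the reads were divided very unequally. Prl3d2 took 90.1% ± 1.45 of the placental lactogen I counts in G9Gl, Prl3d3 9.30% ± 1.39 and Prl3d1 0.623% ± 0.116. Per kb of the longest transcript, the Prl3d2 level was 152 ± 32.9 times that of Prl3d1 and 9.88 ± 1.52 times that of Prl3d3. The ratio to Prl3d1 rests on its 7, 5 and 8 counts, and how multiply aligned reads were divided among copies is not known. The 3 promoter windows shown or counted above differ at few positions. Prl3d2 and Prl3d3 share 99.66% of aligned bases, and Prl3d1 and Prl3d2 share 97.88%. All 3 windows contain the same motif matches.

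Proliferin transcripts were also highest in G9Gl, and of the 3 copies Prl2c2 alone was over the floor in WT. Prl2c2 had 8, 15 and 5 counts in WT, 8, 7 and 6 in S1S2, and 520, 622 and 652 in G9Gl. It was over the floor in every library, and the WT and S1S2 libraries overlapped while all G9Gl libraries lay above them. Its level was 0.301 ± 0.174 CPM in WT, 0.301 ± 0.0588 in S1S2 and 20.6 ± 2.12 in G9Gl, so that the G9Gl mean was 68.5-fold that of WT and 68.4-fold that of S1S2. Prl2c5 had 1, 1 and 0 counts in WT, 0, 0 and 2 in S1S2, and 112, 114 and 141 in G9Gl (4.21 ± 0.350 CPM). It was at least 43.8-fold over WT and at least 32.5-fold over S1S2. Prl2c3 had 1, 1 and 0 counts in WT, 3, 2 and 0 in S1S2, and 56, 57 and 53 in G9Gl (1.91 ± 0.165 CPM), at least 19.9-fold over WT and at least 14.8-fold over S1S2.

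The summed proliferin counts were 10, 17 and 5 in WT, 11, 9 and 8 in S1S2, and 688, 793 and 846 in G9Gl. In CPM this was 0.343 ± 0.203, 0.403 ± 0.0918 and 26.7 ± 2.29, so that the G9Gl mean was 77.8-fold over WT and 66.3-fold over S1S2. The log2 difference, with 0.1 CPM added, was 5.92 (SE 0.394) against WT and 5.74 (SE 0.165) against S1S2. Between S1S2 and WT it was 0.18 (SE 0.415), less than its error, and -0.09 without WT replicate 3, and the libraries of these genotypes overlapped. Prl2c2 held between 75.6% and 78.4% of the proliferin counts in a G9Gl library, Prl2c5 15.8% ± 1.23 on average and Prl2c3 7.20% ± 0.937. Prl2c2 shares 71.2% of its 75-base words with Prl2c3 and 20.1% with the predicted gene Gm7040, and Prl2c3 shares 69.9% of its words with Prl2c2. The parts of both are therefore uncertain, and Prl2c3 had far fewer counts than the copy it resembles.

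In the fit over all genes 5 of the 6 passed the filter on low counts. All 5 fell among the genes called higher in G9Gl against WT (edgeR, adjusted p up to 0.01 and at least a 2-fold difference), which were 6.77% of the 15540 tested. The genes were chosen on this contrast, so this is no test of them and nothing is read from the count. In bulk RNA, more cells that express a gene and more RNA in each such cell cannot be told apart, and single-cell levels were not measured.

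**Figure D2:**
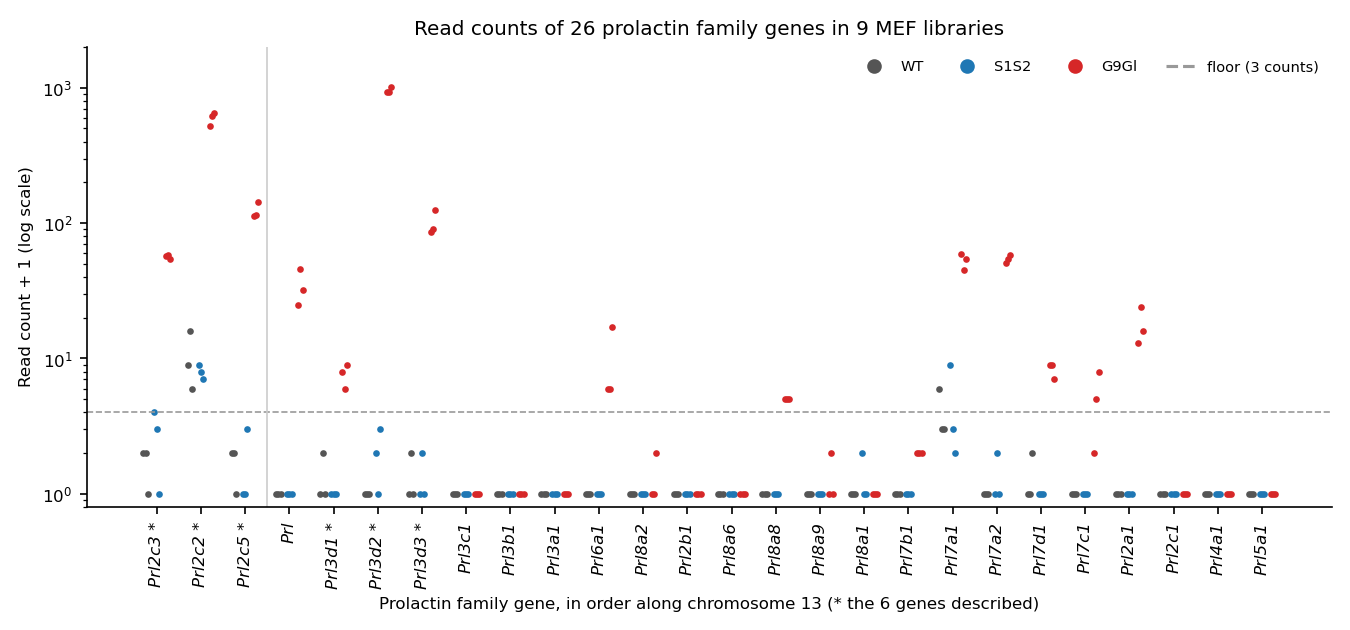
Read counts plus 1 (log y axis) of all 26 listed prolactin family genes (x axis, in chromosomal order, the proximal proliferin genes left of the grey line and the 6 genes described marked by asterisks) in each WT, S1S2 and G9Gl library, 1 point per library. The dashed line is the floor of 3 counts, over which the G9Gl points of 14 genes rise in at least 1 library, while WT points do so for Prl2c2 and Prl7a1.

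The rest of the family was examined gene by gene. Of 20 other listed members, 8 had no count in any library and 4 never exceeded 1 count in a library. The remaining 8 exceeded the floor in at least 1 G9Gl library. Counted with the 6 genes above, 13 family genes were over the floor in all G9Gl libraries, whereas only Prl2c2 was so in all WT libraries. The family summed to between 8 and 21 counts in a WT library, 11 and 21 in an S1S2 library, and 1876 and 2185 in a G9Gl library. In G9Gl the 6 genes described made up between 90.6% and 91.3% of these counts. They were chosen by their counts in these libraries, so nothing is read from this share.

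Prl, which encodes pituitary prolactin itself, had no counts in WT or S1S2 and 24, 45 and 31 in G9Gl. Its annotated antisense partner Gm47888 overlaps it and is not in the table used here, and whether strand was used in counting was not stated. Prl was at least 12.0-fold over WT. Prl7a1 and Prl7a2, a neighbouring pair of placental members, reached similar levels in G9Gl. Prl7a1 had 5, 2 and 2 counts in WT, 8, 2 and 1 in S1S2, and 58, 44 and 53 in G9Gl, which is 18.8-fold over a WT mean that rests on 9 counts in all. Prl7a2 had 0 counts in WT, 0, 1 and 0 in S1S2, and 50, 53 and 57 in G9Gl, at least 19.2-fold over WT. Prl2a1 had no counts in WT or S1S2 and 12, 23 and 15 in G9Gl, at least 6.03-fold over WT.

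These 4 were the only other family genes tested. All 4 were called higher in G9Gl against WT, where 6.77% of tested genes were called higher, and against S1S2, where 7.97% were. Except for a few counts in WT and S1S2 they passed the filter through the G9Gl libraries, so they had to differ, no p-value is given for them, and this count is no support for the other genes. Between S1S2 and WT their counts were too low for a call to be possible, and none of them passed the filter when only those libraries were fitted. Prl6a1, Prl7c1, Prl7d1 and Prl8a8 had fewer reads and were not tested. Their G9Gl counts were 5, 5 and 16 for Prl6a1, 1, 4 and 7 for Prl7c1, 8, 8 and 6 for Prl7d1 and 4, 4 and 4 for Prl8a8, and the WT and S1S2 libraries held 1 count among all of them. A pseudogene overlaps Prl6a1.

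Levels per kb of the longest transcript set the detected genes of the family in an order in G9Gl cells. Prl3d2 stood highest, at 38.7 ± 0.349 CPM per kb, above 89.3% of all tested genes on the same scale. Prl2c2 followed at 24.5 ± 2.52, above 81.4%. Prl2c5 (4.33 ± 0.360) and Prl3d3 (3.99 ± 0.679) overlapped across libraries, and Prl2c3 lay below them at 2.23 ± 0.192. The levels of Prl7a2, Prl7a1 and Prl overlapped in turn, at 1.44, 1.39 and 1.29 CPM per kb. Prl2a1 (0.655), Prl6a1 (0.267) and Prl3d1 (0.262) also overlapped with their neighbours in the order. Placental lactogen I and proliferin copies occupied the top 5 places, and Prl3d1 stood among the lowest detected genes. The placental lactogen I and proliferin genes were chosen by their counts in these libraries, known to be high in G9Gl. Nothing is therefore read from their top places in this order.

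In the distal stretch 11 of 23 genes exceeded the floor in at least 1 G9Gl library, and most of them lay side by side. Prl, Prl3d1, Prl3d2 and Prl3d3 are adjacent and all were detected, as were the adjacent Prl7a1, Prl7a2, Prl7d1, Prl7c1 and Prl2a1. Prl6a1 and Prl8a8 lay apart, between genes at or under 1 count. The 3 genes directly after Prl3d3, which are Prl3c1, Prl3b1 and Prl3a1, had no count in any library, although Prl3b1 encodes placental lactogen II, the hormone that follows placental lactogen I in pregnancy. The last 3 genes of the stretch, Prl2c1, Prl4a1 and Prl5a1, were likewise silent. The window of Prl7d1 shares 94.33% of bases with that of Prl2c5 and holds the same GATA and TATA matches, yet Prl7d1 had 8, 8 and 6 counts in G9Gl where Prl2c5 had 112, 114 and 141.

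**Figure D3:**
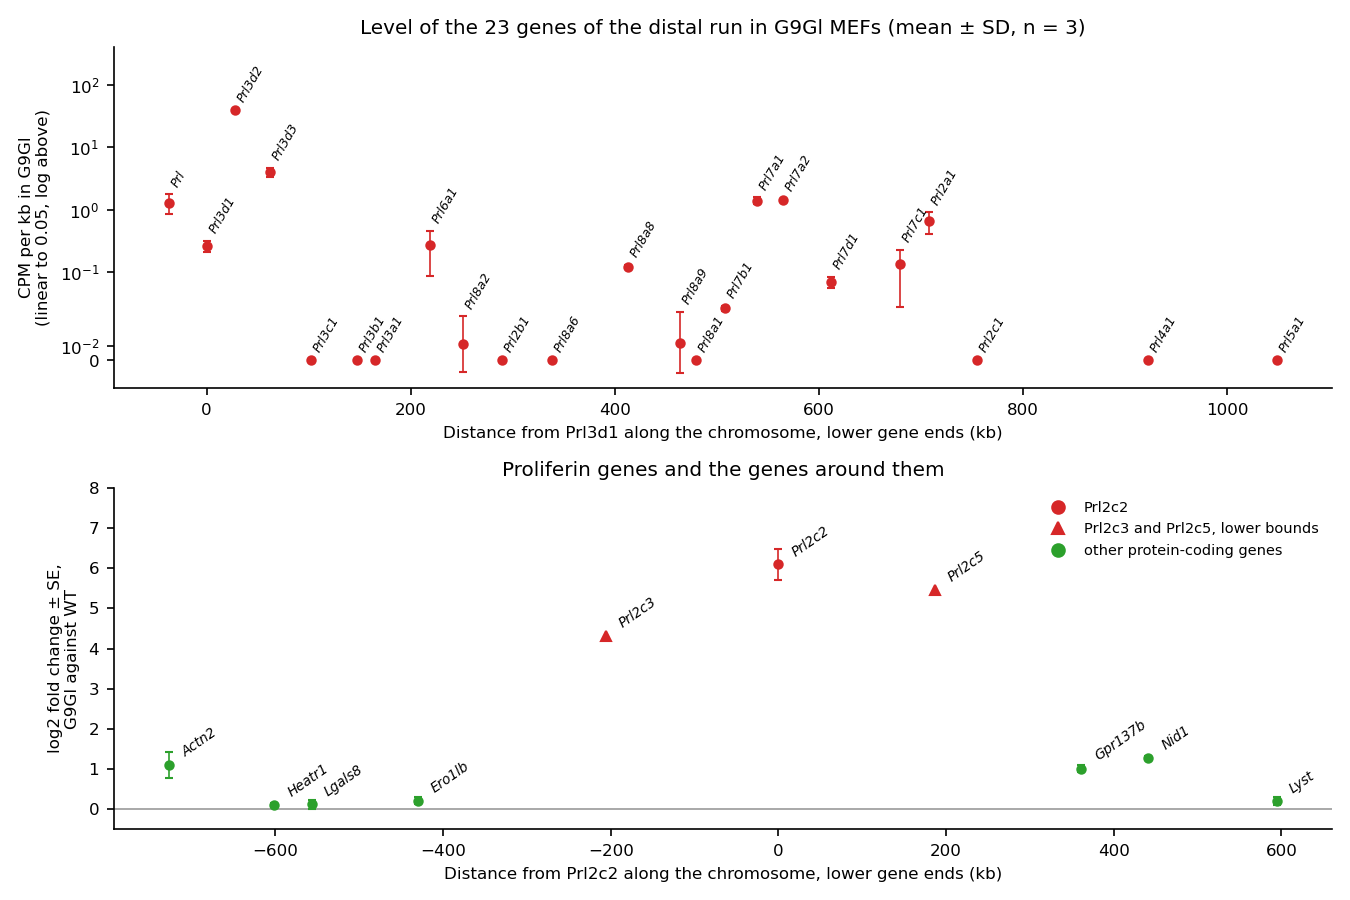
Top, mean level in G9Gl ± SD of 3 libraries (CPM per kb, linear up to 0.05 and logarithmic above) of the 23 genes in the distal stretch against distance from Prl3d1 in kb. Bottom, log2 fold change of G9Gl against WT around the proliferin genes against distance from Prl2c2 in kb, with SE bars, and with triangles for lower bounds of Prl2c3 and Prl2c5. Detected genes of the distal stretch lie in runs of 4 and 5 and at 2 single places. The proliferin genes, which were chosen as high in G9Gl, stand above every flanking gene.

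Genes flanking the family within 500 kb were then compared. Of 9 protein-coding neighbours, 7 were tested, all of them around the proliferin genes. Hdgfl1, the only neighbour of the distal stretch, had no count in any library. In G9Gl against WT, 3 of the 7 were called, all higher, beside 10.2% of all tested genes, and the median log2 fold change of the 7 was 0.21 beside -0.0067 over all genes. Nid1, which encodes the basement membrane protein nidogen, had 7077, 6986 and 6403 counts in WT, 5269, 6703 and 5034 in S1S2, and 14694, 14875 and 16307 in G9Gl. It rose by 1.27 on the log2 scale (SE 0.0496, adjusted p = 1.43e-13) and was called higher against S1S2 also, as were Actn2 and 7.97% of all tested genes. Gpr137b, a lysosomal membrane protein gene, had 473, 456 and 490 counts in WT, 348, 390 and 347 in S1S2, and 955, 795 and 895 in G9Gl. It rose by 1.01 (SE 0.0797, adjusted p = 6.8e-09), at the edge of the fold cutoff. Without WT replicate 1 or G9Gl replicate 1 its log2 fold change was 0.98 or 0.93 and it was no longer called.

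Actn2, a muscle actinin gene, had 53, 90 and 45 counts in WT, 5, 5 and 11 in S1S2, and 113, 134 and 129 in G9Gl. It rose by 1.10 in G9Gl (SE 0.321, adjusted p = 0.000682), a call lost without WT replicate 1 (0.97) or WT replicate 3 (0.92). In S1S2 it fell by 2.73 on the log2 scale (SE 0.483, adjusted p = 1.33e-05) and was the only neighbour called there. The neighbours Heatr1, Lgals8, Ero1lb and Lyst had log2 fold changes between 0.11 and 0.21 in G9Gl and were not called. None of the 7 neighbours approached the difference of Prl2c2, whose log2 fold change was 6.09. Prl2c2 was chosen as high in G9Gl and the neighbours by position, so nothing is read from this comparison.

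The receptors and signalling genes of these hormones were mostly expressed in all genotypes. Prlr, the prolactin receptor through which placental lactogen I acts, had 1 count in a single WT library and 0 in the other 8. Igf2r, the proliferin-binding receptor, was abundant, with between 12385 and 19508 counts in every library, and its log2 fold change in G9Gl was 0.04 (SE 0.0470, adjusted p = 0.427). Of 13 pathway genes 12 were tested, and 2 were called in G9Gl against WT, a share near the 10.2% of all genes, while 9 had an unadjusted p under 0.05, beside 52.4% of all genes. The growth hormone receptor gene Ghr had 1249, 1127 and 1170 counts in WT, 684, 966 and 804 in S1S2, and 431, 404 and 446 in G9Gl. It fell by 1.36 against WT on the log2 scale (SE 0.0231, adjusted p = 2.22e-11) and was called lower against S1S2 too, as 1 of the 12 pathway genes, beside 13.1% of all genes called in that contrast. Socs2, a feedback inhibitor that is a target of Stat5, had 58, 60 and 118 counts in WT, 86, 109 and 126 in S1S2, and 199, 149 and 174 in G9Gl, a rise of 1.25 (SE 0.352, adjusted p = 0.000201).

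Jak2, Stat5a and Stat5b, which carry the receptor signal, had log2 fold changes of -0.11, -0.20 and 0.17 in G9Gl, and Cish, a further Stat5 target, of 0.08, with no call. The median over the 12 genes was 0.06. In S1S2 against WT edgeR called none of the 12, beside 4.66% of all tested genes called higher and 4.34% called lower. An unadjusted p under 0.05 was found for 5, beside 54.6% of all genes. DESeq2 called 0, beside 8.70% of all tested genes. Without WT replicate 3 Socs2 was called there too, with a log2 fold change of 1.28, and 1 pathway gene was called without WT replicate 2 and 1 without S1S2 replicate 3.

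Factors known to act on the placental lactogen I and proliferin promoters were tested next. Hand1, a trophoblast giant cell regulator, had no count in any library. Gata2, a GATA factor of trophoblast giant cells, had 396, 376 and 355 counts in WT, 123, 163 and 123 in S1S2, and 127, 134 and 142 in G9Gl. It was thus lower in both mutants, with a log2 fold change of -1.37 in G9Gl (SE 0.0477, adjusted p = 2.04e-09) and of -1.05 in S1S2 (SE 0.0412, adjusted p = 8.16e-08). Of the 8 tested regulators, Gata2 was the 1 called in G9Gl, a share near the 10.2% of all genes, while 6 had an unadjusted p under 0.05, beside 52.4% of all genes. Gata3 changed by -0.44 in G9Gl and was not called.

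The AP-1 genes Fos, Fosl1, Fosl2, Jun, Junb and Jund had log2 fold changes between -0.40 and 0.55 in G9Gl, none of them called. In S1S2 Fosl1, which encodes the AP-1 subunit Fra-1, rose by 1.52 (SE 0.251, adjusted p = 2.67e-07), with 300, 378 and 241 counts against 160, 165 and 99 in WT, and 109, 132 and 130 in G9Gl. It was lower in G9Gl than in S1S2, at a log2 difference of -1.61 (SE 0.128, adjusted p = 1.08e-07).

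Markers of trophoblast, the cells that normally make these hormones, were mostly silent. Of 24 markers, 12 had no count in any library and 16 never exceeded the floor. The defining genes Cdx2, Gcm1, Tfap2c, Tpbpa and Synb were at 0 in all 9 libraries, as were the placental cathepsins Ctsj, Ctsm and Cts7. Elf5 had 1 count in a WT and in an S1S2 library. The summed level of the list ranged from 22.8 to 32.3 CPM in WT, from 38.6 to 40.6 in S1S2 and from 93.9 to 118.6 in G9Gl, and its part in the hormone result was not tested. Most of these counts came from Wnt7b and Slc2a3, which other cells use as well.

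Only 4 of the 24 markers could be tested, and all 4 were called higher in G9Gl against WT, beside 6.77% of all genes. Eomes, a T-box factor of trophoblast stem cells and of other lineages, had 66, 54 and 55 counts in WT, 31, 23 and 35 in S1S2, and 129, 129 and 132 in G9Gl, a rise of 1.26 (SE 0.0685, adjusted p = 1.19e-05). Plac1, an X-linked placental gene, had 26, 13 and 12 counts in WT, 29, 39 and 19 in S1S2, and 47, 52 and 86 in G9Gl, a rise of 1.96 in G9Gl (SE 0.366, adjusted p = 3.87e-05) and of 1.17 in S1S2 (adjusted p = 0.00802). The S1S2 call was lost without WT replicate 2 or 3 or S1S2 replicate 1 or 2 (adjusted p = 0.0299, 0.0315, 0.0286 and 0.0468), and with the replicate number as a block (adjusted p = 0.0103). Wnt7b, a Wnt ligand gene of the placental labyrinth and other epithelia, had 417, 445 and 220 counts in WT, 772, 961 and 720 in S1S2, and 1312, 1739 and 1715 in G9Gl. It rose by 2.25 in G9Gl (SE 0.346, adjusted p = 2.62e-09) and by 1.59 in S1S2 (SE 0.321, adjusted p = 4.11e-07). Slc2a3, a glucose transporter gene, had 469, 463 and 416 counts in WT, 45, 67 and 42 in S1S2, and 1173, 1375 and 1599 in G9Gl. It rose by 1.73 in G9Gl (SE 0.117, adjusted p = 2.07e-11) and fell by 2.72 in S1S2 (SE 0.106, adjusted p = 2.26e-11). Rhox9, a homeobox gene of placenta and gonad, was not tested, with 6, 8 and 4 counts in G9Gl and 1 count in total over the other libraries.

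The pituitary was checked as the other source of the family. Pou1f1, the pituitary factor that drives Prl there, had at most 1 count in any library, and growth hormone (Gh) had 0. Among 10 markers of cells other than fibroblasts and trophoblast, these included, 3 were tested. The endothelial gene Cdh5 had 0 counts in WT, 2, 3 and 1 in S1S2, and 43, 14 and 31 in G9Gl, while Pecam1, a further endothelial gene, had 4, 4 and 4, 7, 14 and 3, and 4, 2 and 2. The epithelial keratin gene Krt8 had 4, 3 and 6 counts in WT, 104, 113 and 109 in S1S2, and 7, 8 and 4 in G9Gl, whereas the epithelial gene Epcam had 9, 6 and 10, 2, 6 and 6, and 1, 2 and 3, and Cdh1 at most 3 in any library. Cdh5 and Krt8 passed the filter through the group where they were high, so no p-value is given. Their part in the hormone result was not tested.

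**Figure D4:**
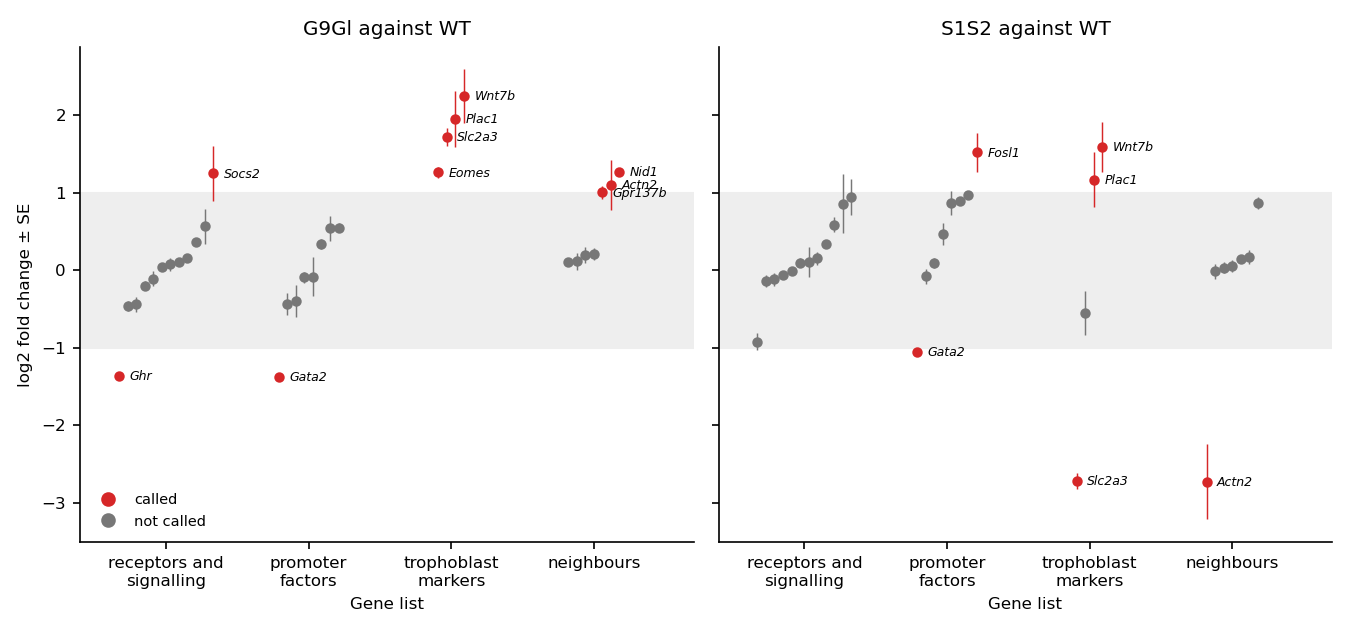
Log2 fold change ± SE (y axis) of the tested genes of the 4 gene lists (x axis) in G9Gl against WT (left) and S1S2 against WT (right), 1 point per gene, with called genes in red and named. The shaded band marks changes under the fold cutoff of 2, within which most receptor, signalling and promoter factor genes lie.

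Genes whose log2 CPM followed the summed placental lactogen I counts most closely over the 9 libraries, among 15470 tested genes with a symbol outside the family, included Gpr176 (Pearson r = 0.998), Cdkn2b (0.998), Myom2 (0.997) and Nxf3 (0.997). Nxf3, an X-linked RNA export factor gene, had at most 1 count in a WT or S1S2 library and between 505 and 645 in a G9Gl library. Gpr176 and the cell cycle inhibitor gene Cdkn2b were expressed in WT, at 29.8 ± 1.86 and 57.4 ± 1.67 CPM, and in G9Gl at 69.3 ± 1.61 and 96.0 ± 1.76 CPM. Myom2, a sarcomere gene, stood at 27.3 ± 2.26 CPM in WT and 414 ± 13.3 in G9Gl.

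For the proliferin sum the closest genes were Specc1 (0.998), Msln (0.996), Nid1 (0.996), Aff2 (0.995) and Ptgs2 (0.995). Nid1 is itself a neighbour of the proliferin genes. The mesothelial gene Msln stood at 433 ± 17.9 CPM in WT and 991 ± 20.2 in G9Gl, and the prostaglandin synthase gene Ptgs2 at 32.6 ± 2.75 and 76.9 ± 2.80 CPM. Since the libraries fall into genotype groups, any gene high in G9Gl alone scores near 1 on this measure, and 95 genes exceeded 0.99 for placental lactogen I and 42 for proliferin.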

How the data were processed

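RNA sequencing covered 3 libraries for each of the genotypes WT, S1S2 and G9Gl. The table deposited by the authors holds raw counts, whole numbers for each Ensembl gene. Per the study's methods, the authors sequenced stranded libraries as paired-end reads of 75 bp, trimmed the reads, aligned them to GRCm38 with STAR 2.5.2b (version from the submitters' processing notes) under the settings recommended for TEtranscripts, and counted them with that tool. How multiply aligned reads were divided among genes is not stated. The annotation release and the strand setting of the counting are not given in the sources used here. Repeats were not analysed here.

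Identifiers of 47310 of the 47937 genes were matched to GENCODE M21, which gave symbols, positions and transcript lengths, and 627 were not matched. Library totals ranged from 21319778 to 32157623 counts. Between replicates the chi-square per degree of freedom ranged from 2.68 to 25.6, above counting noise, and none was treated as a duplicate. The common biological coefficient of variation was 5.36%. Floors and errors cover counting and library-to-library variation, and without molecular identifiers reads are no independent molecules.

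After filterByExpr (15540 genes kept) and TMM normalization, all 9 libraries were fitted together by edgeR 4.0.16 in R 4.3.3, and genotypes were contrasted by its quasi-likelihood test (glmQLFTest). Calls required a 2-fold difference or more and p, adjusted after Benjamini and Hochberg over all tested genes, up to 0.01. All adjusted p-values are from this test. CPM are scaled by TMM factors and given as mean ± SD of 3 libraries. SE of single genes come from log2 CPM with a prior count of 2, and SE of summed copies from log2 CPM with 0.1 CPM added. Where no library of a genotype exceeded 3 counts, the gene was taken as not detected there, and its fold is a bound against the mean of the library floors.

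The 6 genes, the gene lists and the tests were chosen with earlier results of these data known. Named are the 6 genes, other family genes over 3 counts in any library, called genes of the lists (receptors and signalling, promoter factors, trophoblast markers, neighbours within 500 kb of the family) and the 5 genes most correlated with each summed group, of which 1 is not reported here. Other genes named were chosen after their values were seen. Alternatives were DESeq2 1.42.0, other normalizations, filters and thresholds, only the libraries compared, summed copies, a larger addend, the replicate number as a block, and fits that each lacked 1 library. Promoter windows are from RefSeq (GRCm38.p6).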

Additional observations from a re-analysis of the deposited data

Results flagged for a closer look

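The genes Slc2a3, Thy1 and Actn2 stood out because their differences from WT had opposite directions in the mutants, as tested by the direct contrast of G9Gl against S1S2 with edgeR. Slc2a3, the glucose transporter gene on the trophoblast list, was higher in all G9Gl and lower in all S1S2 libraries than in any WT library, and the log2 fold change of G9Gl against S1S2 was 4.44 (SE 0.137, adjusted p = 3e-15). Thy1, a surface protein gene on the fibroblast list, had 176, 156 and 136 counts in WT, 43, 50 and 50 in S1S2, and 1055, 1147 and 1127 in G9Gl, and its log2 fold change between the mutants was 4.23 (SE 0.117, adjusted p = 2.4e-15). Actn2, a neighbour of the proliferin genes, differed by 3.84 (SE 0.379, adjusted p = 4.2e-08) in the same contrast, with 113, 134 and 129 counts in G9Gl and 5, 5 and 11 in S1S2.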

How the results depend on the processing

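No called direction was reversed under any alternative. Differences that were not called changed sign when a library was left out in 5 cases. The proliferin sum in S1S2 against WT went from 0.18 to -0.09 without WT replicate 3, Prl7a1 in the same contrast from 0.68 to -0.60 without S1S2 replicate 1, Fosl1 in G9Gl against WT from -0.08 to 0.07 without WT replicate 2, and Gpr137b in S1S2 against WT from 0.03 to -0.0026 without WT replicate 1 and -0.0068 without S1S2 replicate 3. Counts for the other family genes stayed at 4 called in G9Gl against WT and against S1S2 and 0 in S1S2 against WT wherever they were tested, except without the filter in the G9Gl contrasts. There 6 of 12 were called in G9Gl against WT, beside 7.16% of all genes, and 6 against S1S2, beside 9.32%. Nearly all reads of these genes were in G9Gl, so these counts are no support for the other genes. With only the S1S2 and WT libraries in the fit none of them passed the filter. With 0.5 CPM added in place of 0.1, the log2 difference of the placental lactogen I sum was 6.16 against WT and 6.06 against S1S2, and that of the proliferin sum 5.01 and 4.91, as follows from the larger addend. At an adjusted p of 0.05 with no fold change cutoff, which called 45.9% of all genes in G9Gl against WT, 48.9% in S1S2 against WT and 53.3% between the mutants, 8 of 12 pathway genes were called in G9Gl against WT, 5 in S1S2 against WT and 5 between the mutants. Of 8 promoter factors 5, 6 and 8 were called in the same order, while 4 of 4 trophoblast markers were called between the mutants, and 4 of 7 neighbours in S1S2 against WT and 4 between the mutants. Leaving out each library in turn gave 0 to 1 pathway genes in S1S2 against WT, with 1 without WT replicate 2, WT replicate 3 or S1S2 replicate 3, and 1 to 3 neighbours in G9Gl against WT, with 1 without WT replicate 1. Without a composition factor the log2 fold change of Gpr137b was 0.98, under the cutoff.

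Same-numbered libraries did not deviate together, with correlations of deviations between -0.0686 and 0.124, so the replicate numbers are not taken as pairs. With the number as a block, 1568 genes were called in G9Gl against WT, 1383 in S1S2 against WT and 2022 between the mutants, of which 1559, 1368 and 2005 were also called without it. The block removed the call of Plac1 in S1S2 against WT (log2 fold change 1.18, adjusted p = 0.0103) and changed no other call among the named genes. The placental lactogen I genes are at the floor outside G9Gl, so depth limits their folds to bounds, and the division of reads among near-identical copies was not tested. The cause of the changes with thresholds or left-out libraries was not tested.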
